A study of Mus musculus with 3 samples.

Results

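Guide sg1 and guide sg2 against Kdm1a were set against each other, 1 library each, in a mouse small cell lung cancer line that the submitters call line 3. Genes were kept when the higher of the 2 libraries held at least 200 counts, counts were scaled to the library totals, and genes that differed 4-fold or more either way were taken as the members. Of 24523 genes in all, 11988 reached 200 counts. Of these, 117 were 4-fold or more higher with sg1, which is 0.976% of them, and 96 were 4-fold or more higher with sg2, which is 0.801%, so that 213 members (1.78%) are described here. The counts of the 2 guide libraries chose the members, so their ratios are a description. No test of sg1 against sg2 exists with 1 library per guide, and none is given.

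The 3 libraries came from cells infected with a lentiviral CRISPR vector that carried Kdm1a-sg1, the same vector with Kdm1a-sg2, or Crispr-V2, for which no guide is named. All 3 populations of cells were kept under puromycin for 1 week or longer, and the labels give both guide libraries the genotype Kdm1a knock-out. Whether each guide population was a pool or grew from 1 clone is not stated in the sources used here. Small cell lung cancer is a tumour of neuroendocrine character, and a line of it is a cultured population without the tissue it came from.

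Kdm1a encodes LSD1, a demethylase that removes methyl groups from lysine 4 of histone H3. It works within the CoREST complex, which DNA-binding proteins such as those with a SNAG domain bring to the genes that they hold down. In neuroendocrine cells the complex is known for keeping genes of other cell types low, and inhibitors of LSD1 have been studied in small cell lung cancer.

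Kdm1a itself had 3950 counts with sg1, 5716 with sg2 and 11468 with the control vector. Both guide libraries were below the control, with log2 ratios to it of -1.58 for sg1 and -1.24 for sg2. The sg2 library was 1.27-fold above the sg1 library (95% exact counting interval 1.22 to 1.32), so Kdm1a is not a member, and an RNA level does not show how many copies still code for protein. Neuroendocrine markers were present in all 3 libraries, as the label of the line asks. Chga, the granule protein chromogranin A, had 6161 counts with sg1, 3470 with sg2 and 13858 in the control, and Insm1, a neuroendocrine zinc finger factor, had 19145, 14721 and 32795. Syp, a protein of the synaptic vesicle membrane, had 3762 counts with sg1, 2623 with sg2 and 4145 in the control. These 3 markers were lower with sg2 than with sg1, whereas Uchl1, a neuronal ubiquitin hydrolase, was higher with sg2, at 11401, 21065 and 23188 counts, all by less than the 4-fold limit.

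The libraries held 44667861 counts for sg1, 51066078 for sg2 and 43424212 for the control, and 16841 to 17487 genes had at least 1 count. Where a gene had no count, up to 3 counts remain possible, or 0.0672 CPM (counts per 1e6 of the library total) for sg1, 0.0587 for sg2 and 0.0691 for the control. Folds with a count of 0 on 1 side are lower bounds against these 3 counts. They leave out the counting error of the other library, and the exact interval starts lower (140-fold for Gp2, given below as at least 173-fold). Intervals and bounds cover counting error only and say nothing of how a repeat of the same guide would vary. The reads carry no molecular identifiers, so PCR copies are counted as molecules. Of cells that the line should not contain, leukocyte markers summed to 45.9 CPM with sg1, 40.4 with sg2 and 88.0 in the control, with 13, 15 and 17 of 26 genes at 0 and Ptprc at 0, 1 and 0 counts. In the same order the fibroblast genes Lum, Col1a2 and Dcn were at 0, 0 and 0, at 15, 6 and 0, and at 196, 119 and 25 counts.

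The gap between the guides was wide at both ends. At 8-fold or more 34 genes were higher with sg1 and 42 with sg2, at 16-fold or more 10 and 26, and at 64-fold or more 3 and 9. The longer tail thus lay on the sg2 side. There 4 members had no count at all with sg1, whereas 1 member of the sg1 side had none with sg2. The numbers over all 11988 genes are the same 4 and 1, since the rule makes every such gene a member. The control had no count for 16 of the 117 genes higher with sg1 and for 19 of the 96 higher with sg2, against 169 of all 11988 genes. Just inside the limit on the sg1 side were Nrip1 (4.02-fold), Mgp (4.03) and Galnt13 (4.04), and just outside were Klhl24, Stxbp5l and Izumo1, each at 3.99-fold. On the sg2 side Efhd1 (4-fold), Khk (4.06) and Tmem106a (4.07) lay just inside, and Slc52a3 (just under 4-fold), Acot1 (3.99) and Fam131c (3.98) just outside.

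**Figure D1:**
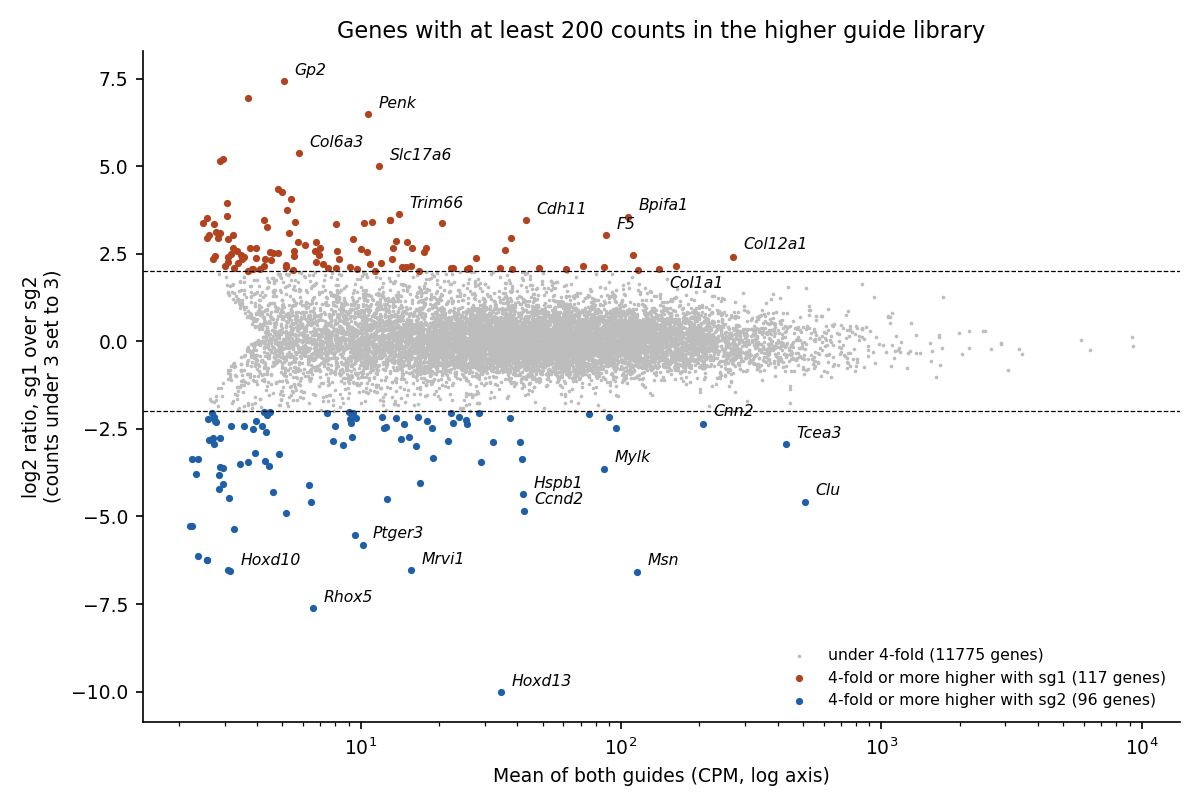
Each point is 1 gene with at least 200 counts in the higher guide library; the horizontal axis is the mean of sg1 and sg2 in CPM on a log axis and the vertical axis the log2 ratio of sg1 over sg2, with counts under 3 set to 3. The 117 genes above the upper dashed line (4-fold) and the 96 below the lower one are coloured, and sg2 has the more distant points, down to Hoxd13.

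The ratio of the guides moved with gene length over the whole table, and this bears on every group below. Length was read from the deposited counts over RPKM (reads divided by gene length and by library depth). In 5 bins of 2397 or 2398 genes, the median log2 ratio of sg1 over sg2 was -0.40 in the shortest bin (up to 1718 bp), then -0.14, 0.01 and 0.18, and 0.42 in the longest bin (from 5036 bp). Against the control the medians of sg1 went through 0.11, 0.11, 0.06, -0.01 and -0.11 from short to long, and those of sg2 through 0.52, 0.26, 0.07, -0.16 and -0.50. The larger slope was that of sg2. Members followed: the longest bin held 44 of the genes higher with sg1 and 10 of those higher with sg2, while the shortest held 10 and 28. The median length was 3896 bp for members higher with sg1, 2440 bp for those higher with sg2 and 3036 bp for all 11988 genes. With a smooth length trend subtracted, 108 genes (0.901%) were 4-fold or more higher with sg1 and 92 (0.767%) with sg2, of which 92 and 81 were members before. The trend therefore moves 25 and 15 of the members under the limit, and the length-corrected fold stands below beside the genes of each program that it moves under the limit. What sets the trend was not tested.

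**Figure D2:**
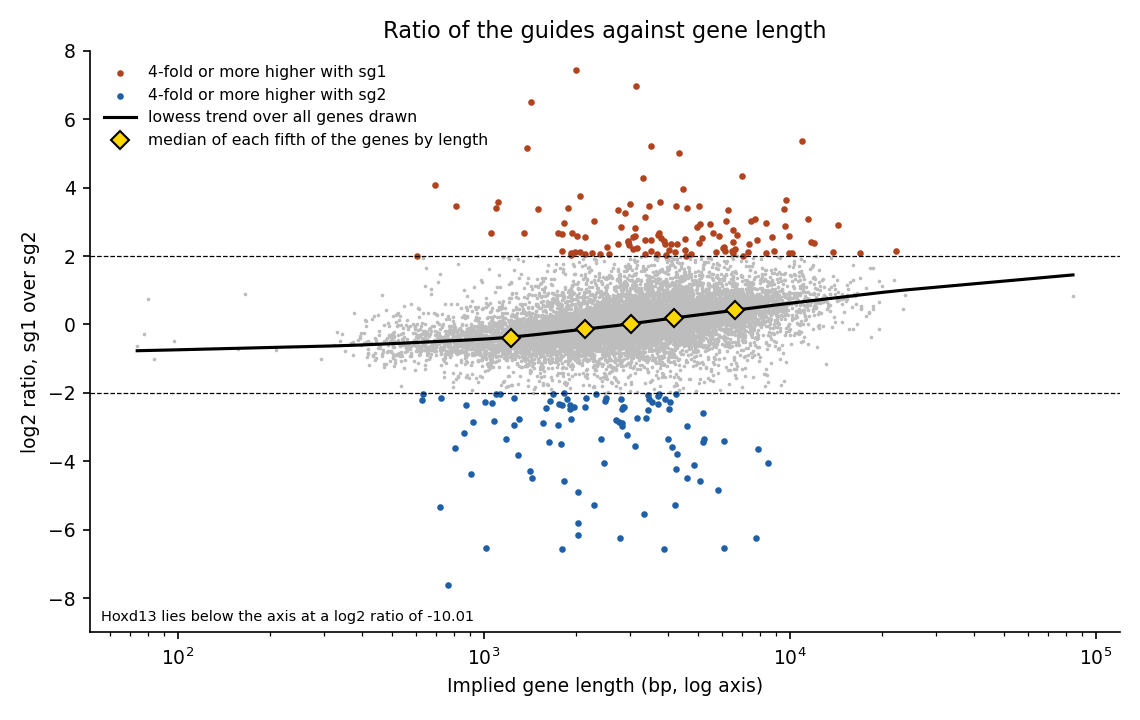
Each point is 1 gene with at least 200 counts in the higher guide library; the horizontal axis is the length implied by counts over RPKM in bp on a log axis and the vertical axis the log2 ratio of sg1 over sg2. The medians of the 5 length bins (diamonds) climb from -0.40 to 0.42, and members lie beyond the dashed 4-fold lines at every length.

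Collagen chains were 1 group of genes higher with sg1. Collagens are the main structural proteins of connective tissue, and their chains are cut, cross-linked and degraded outside the cell. Of 21 collagen chains with at least 200 counts, 6 were 4-fold or more higher with sg1 and none with sg2, against 0.976% and 0.801% of all genes, and the median log2 ratio of the 21 was 0.62 against 0.01 over all genes. Col12a1, a chain found on the surface of collagen fibrils (GRCm38 chromosome 9, 79598987 to 79721141), had 20185 counts with sg1, 4347 with sg2 and 4 in the control, a difference of 5.31-fold between the guides (interval 5.14 to 5.49). Col1a1, a chain of the main fibrillar collagen (chromosome 11, 94936224 to 94953042), had 10119, 2752 and 4 counts, 4.20-fold. Both genes were thus far above the control with either guide, and sg1 was the higher of the 2. Col3a1, another fibrillar chain, had 1381 counts with sg1, 248 with sg2 and 2 in the control (6.37-fold). Col6a3, a chain of the beaded filaments of collagen VI, had 507, 14 and 0 (41.4-fold, interval 24.4 to 76.3). Col22a1 had 257, 36 and 27 counts (8.16-fold), so that its sg2 level was near the control, and Col11a1 had 616, 138 and 185, with the control between the guides.

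Collagen genes are long, and the length trend bears on them. After its subtraction Col6a3 stood at 26.6-fold, Col22a1 at 6.37-fold and Col3a1 at 5.13-fold, while Col11a1 (3.74-fold), Col1a1 (3.59-fold) and Col12a1 (3.33-fold) were under the limit. The median of the list was then 0.23 on the log2 scale. In bulk RNA a lower share of cells with a gene on and less RNA per cell cannot be told apart, here or for any group below. Of 10 markers of fibroblasts and mesothelium, 3 were 4-fold higher with sg1, against 0.976% of all genes. All 3 (Col1a1, Col3a1 and Loxl1) are also held by the collagen and protease lists, so the marker list is not separate from them. The summed level of the marker list was 646 CPM with sg1, 393 with sg2 and 36.0 in the control. Within it Col1a1, Col3a1 and Loxl1 had 227, 30.9 and 15.6 CPM with sg1 and 53.9, 4.86 and 3.72 with sg2. The part of fibroblasts or mesothelium in the collagen result was not tested. Of the list's 24 genes 5 were at 0 with sg1, 2 with sg2 and 7 in the control; Lum was at 0 in all 3 libraries, and Dcn was 1.88-fold higher with sg1 than with sg2.

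Some enzymes and partners of the matrix were also higher with sg1, without a shift of their group. Of 27 matrix proteases, inhibitors and lysyl oxidases, 4 were 4-fold higher with sg1 and none with sg2, against 0.976% and 0.801% of all genes, while 14 had a log2 ratio above 0 and 13 below, with a median of 0.13 (-0.09 after length). Serpinf1, a secreted serpin also called pigment epithelium-derived factor, had 1672 counts with sg1, 185 with sg2 and 40 in the control (10.3-fold, interval 8.87 to 12.1). Adamts2, which trims the ends of procollagen, had 253, 24 and 0 counts (12.1-fold), and Loxl1, a cross-linking oxidase, had 697, 190 and 0 (4.19-fold). Mmp2, a gelatinase, had 527 counts with sg1, 131 with sg2 and 104 in the control, so that its sg2 level was near the control. Cdh11, a cadherin of mesenchymal cells, had 3540, 364 and 13 counts (11.1-fold, interval 9.98 to 12.4), and Ddr2, a receptor tyrosine kinase that binds collagen, had 3006, 439 and 11 (7.83-fold). Foxc2, a forkhead factor of mesenchyme, had 320 counts with sg1, 71 with sg2 and 0 in the control. Of 38 matrix glycoproteins 1 was higher on each side: Mgp, an inhibitor of calcification, had 815, 231 and 0 counts (4.03-fold higher with sg1), and Bgn, the proteoglycan biglycan, had 333, 3874 and 8 (10.2-fold higher with sg2). The matrix as a whole was therefore not shifted to 1 guide: glycoproteins had a median of -0.27, and Vim, the intermediate filament of mesenchymal cells, had 11713 counts with sg1, 32362 with sg2 and 0 in the control, 2.42-fold higher with sg2 and under the limit.

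**Figure D3:**
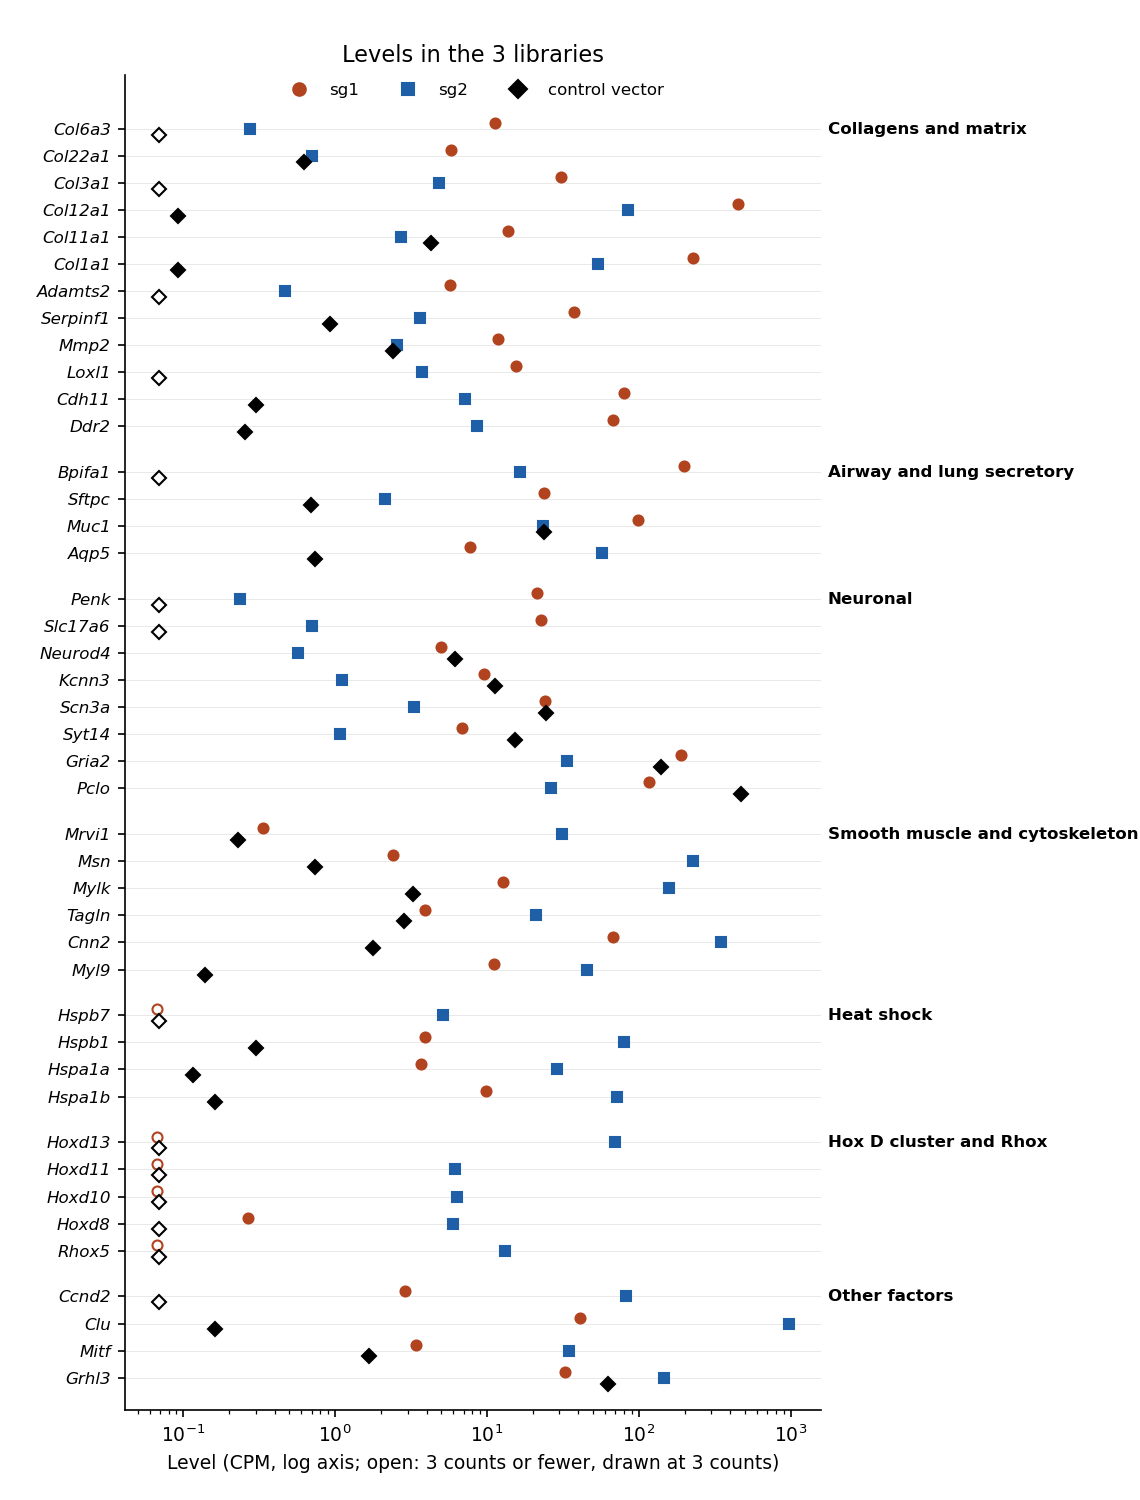
Levels in CPM (log axis) of 43 genes in the sg1 library (circles), the sg2 library (squares) and the control (diamonds), grouped by program; open symbols are counts of 3 or fewer, drawn at 3 counts. The collagen and matrix genes drawn are highest with sg1, the smooth muscle, heat shock and Hoxd genes drawn are highest with sg2, and the control lies at the low end for most of them but above sg1 for Neurod4, Kcnn3, Scn3a, Syt14, Pclo and Grhl3.

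Genes of airway and lung secretory cells were also unequal, in both directions. Bpifa1, a protein secreted onto the surface of the upper airways (chromosome 2, 154142880 to 154149217), had 8789 counts with sg1, 848 with sg2 and 0 in the control, 11.8-fold higher with sg1 (interval 11 to 12.7). Its relative Bpifb1 had 1235, 414 and 1 counts, which is 3.41-fold and under the limit (4.05-fold after length). Sftpc, the surfactant protein of alveolar type 2 cells, had 1061 counts with sg1, 109 with sg2 and 30 in the control (11.1-fold, interval 9.13 to 13.7), but Sftpb, another surfactant protein, had 1166, 910 and 4 (1.46-fold). Aqp5, a water channel of alveolar type 1 and gland cells, was on the other side with 347, 2899 and 32 counts, 7.31-fold higher with sg2. The secretory list thus gave 2 members higher with sg1 and 1 higher with sg2 among 9 genes, against 0.976% and 0.801% of all genes. Its median log2 ratio was 0.55 (0.25 after length), with 6 genes above 0 and 3 below. Muc1, a membrane mucin of epithelia, had 4438 counts with sg1, 1200 with sg2 and 1032 in the control (4.23-fold), and Gp2, a membrane glycoprotein of secretory granules, had 453, 0 and 9, at least 173-fold higher with sg1. For Muc1 the sg2 level was near the control (23.5 and 23.8 CPM), and for Gp2 it was below it.

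Neuronal genes were another group higher with sg1. Small cell lung cancer cells share with neurons the channels, vesicle proteins and receptors of excitable cells. In 6 of 7 neuronal lists the median log2 ratio of sg1 over sg2 ran from 0.49 for 50 synaptic vesicle genes to 0.97 for 31 potassium channels, with 0.57 for 63 adhesion and guidance genes, 0.62 for 28 calcium, sodium and TRP channels, 0.74 for 26 granule proteins and neuropeptides and 0.84 for 27 neurotransmitter receptors. A seventh list, neuroendocrine transcription factors, had a median of 0.38 over 26 genes (0.26 after length) and 1 gene higher with sg1, Neurod4. The number of genes past 4-fold was small in each of the 6: 3 synaptic, 4 potassium channel, 3 adhesion, 3 sodium channel, 1 granule and 4 receptor genes were higher with sg1, and 2 receptor genes were higher with sg2, against 0.976% and 0.801% of all genes. With the length trend subtracted, the medians of the same lists were 0.43, 0.74, 0.22, 0.35, 0.75 and 0.79 in the order given.

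The largest neuronal difference was that of Penk, which encodes the precursor of the enkephalins (chromosome 4, 4133536 to 4138815). It had 946 counts with sg1, 12 with sg2 and 0 in the control, 90.1-fold (interval 51.4 to 175). Slc17a6, the vesicular glutamate transporter VGLUT2, had 1019, 36 and 0 counts (32.4-fold, interval 23.2 to 46.5). These genes were on with sg1 and near or at 0 in the control. Several other neuronal members had another pattern, with the control above sg1. Pclo, a scaffold of the presynaptic active zone, had 5216 counts with sg1, 1345 with sg2 and 20306 in the control (4.43-fold, and 2.28-fold after length). Syt14, of the synaptotagmin family, had 306, 55 and 666, and the vesicle glycoprotein gene Sv2c had 203, 45 and 1287. Neurod4, a neurogenic bHLH factor, had 223 counts with sg1, 29 with sg2 and 269 in the control (8.79-fold). In these 4 genes the control was the highest library and sg2 the lowest.

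Ion channels followed the same order in part. Scn3a, a sodium channel subunit, had 1077 counts with sg1, 169 with sg2 and 1063 in the control (7.29-fold). Scn9a had 2476, 667 and 4337 (4.24-fold, 2.81-fold after length), and Scn2a had 806, 158 and 225 (5.83-fold). Scn2a thus lay above the control with sg1 and below it with sg2. Among potassium channels, Kcnn3, a calcium-activated channel, had 424 counts with sg1, 57 with sg2 and 493 in the control (8.50-fold), and Kcnh5 had 989, 220 and 1058 (5.14-fold). Kcnab1, an accessory subunit, had 212, 21 and 30 counts, and Kcnt1, a sodium-activated channel, had 1139, 294 and 400 (4.43-fold, 3.46-fold after length). With sg1, the first pair lay near the control and the second pair above it.

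Receptors were mixed. Gria2, an AMPA glutamate receptor subunit, had 8402 counts with sg1, 1718 with sg2 and 6078 in the control (5.59-fold, 4.01-fold after length), and Gabrq, a GABA-A receptor subunit, had 425, 81 and 624. Gabbr2, a GABA-B receptor subunit, had 378, 95 and 40, and P2rx3, an ATP-gated channel, 542, 144 and 122 (4.30-fold, 3.81-fold after length). Adrb1, a beta-adrenergic receptor, was on the sg2 side with 272 counts with sg1, 1391 with sg2 and 9 in the control (4.47-fold higher with sg2). Of the adhesion and guidance genes, Slit3, a secreted guidance ligand, had 347, 36 and 19 counts (11-fold higher with sg1), Opcml 249, 60 and 55 (4.74-fold, 3.73-fold after length), and Cntnap5b 351, 70 and 59. The protocadherin Pcdh17 had 838 counts with sg1, 92 with sg2 and 331 in the control (10.4-fold), whereas Pcdh18 had 28, 346 and 11 and was 10.8-fold higher with sg2.

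Several abundant members higher with sg1 belonged to other programs. Vwf, the von Willebrand factor of clotting, had 11828 counts with sg1, 3034 with sg2 and 8234 in the control (4.46-fold, 3.06-fold after length), and F5, coagulation factor V, had 6998, 974 and 958 (8.21-fold, interval 7.68 to 8.79). Vwf also marks endothelium, whose 21 markers summed to 323 CPM with sg1, 121 with sg2 and 200 in the control, of which Vwf alone made up 265, 59.4 and 190; Pecam1 had 21, 1 and 7 counts. Trib3, a pseudokinase induced by amino acid shortage and the unfolded protein response, had 6258 counts with sg1, 1641 with sg2 and 174 in the control (4.36-fold), and Slc7a3, a carrier of cationic amino acids, had 2750, 747 and 1096 (4.21-fold). They were the 2 members among 34 genes of that response, whose median was 0.43, against 0.976% and a median of 0.01 over all genes. Gatad2b, a subunit of the NuRD chromatin complex, had 8327, 2335 and 5332 counts (4.08-fold). Deptor, an inhibitor of mTOR, had 1058 counts with sg1, 110 with sg2 and 564 in the control (11-fold), and Trim66 had 1158, 107 and 729 (12.4-fold). In Gatad2b, Deptor and Trim66 it was sg2 that stood apart, below both other libraries. COX2, the mitochondrial gene of cytochrome oxidase subunit 2, had 457, 31 and 416 counts although COX1 had 427351, 451490 and 445829. Mitochondrial genes have nuclear copies with which they share reads, so the COX2 value is uncertain.

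The most extreme members lay on the sg2 side, and 4 of them were neighbours in the Hox D cluster. Hox genes encode homeodomain factors that mark position along the body axis, and they stand in 4 clusters whose genes are often silenced or opened together. Hoxd13, the outermost gene of the cluster (chromosome 2, 74668225 to 74671603), had 1 count with sg1, 3538 with sg2 and 0 in the control. From these counts as they stand the ratio of sg2 over sg1 is 3095, with a counting interval of 555 to 122269. With the count of sg1 set to 3, as in the plot of ratios by level, it is 1032. Hoxd11 had 0, 315 and 0 counts (at least 91.8-fold higher with sg2), and Hoxd10 had 0, 322 and 0 (at least 93.9-fold). Hoxd8 had 12 counts with sg1, 305 with sg2 and 0 in the control (22.2-fold, interval 12.5 to 43.5). Per length the sg2 levels were 27.6 RPKM for Hoxd13, 6.04 for Hoxd11, 3.49 for Hoxd10 and 4.15 for Hoxd8, with 0.489 for Hoxd9 and 0.0539 for Hoxd12.

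The difference ended at the edges of that stretch. Hoxd1, Hoxd3 and Hoxd4, at the other end of the cluster, had 0 counts in all 3 libraries. Evx2, next to Hoxd13, had 0, 2 and 0 counts, and Mtx2, beyond Hoxd1, had 2109 with sg1, 3118 with sg2 and 2010 in the control, a log2 ratio of -0.37. The other clusters were similar between the guides or near 0: the sum over Hox B genes was 50013 counts with sg1, 49765 with sg2 and 36536 in the control, that over Hox A genes 63, 67 and 0, and that over Hox C genes 6, 18 and 0, against 13, 4540 and 0 for Hox D. Hoxb5 had the highest ratio toward sg1 of the Hox B genes with at least 200 counts (log2 0.86), chosen after its value was seen. Rhox5, a homeobox gene of the X chromosome known from the reproductive tract, was also seen with sg2 alone, with 0, 672 and 0 counts (at least 196-fold).

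Part of the smooth muscle list was higher with sg2. Contraction of smooth muscle rests on myosin light chains, the kinase that phosphorylates them, and thin-filament proteins, many of them targets of serum response factor, which binds the CArG box. Of 14 smooth muscle genes with at least 200 counts, 4 were 4-fold or more higher with sg2 and none with sg1, against 0.801% and 0.976% of all genes. In 13 the log2 ratio was below 0. The median log2 ratio was -1.05, also after the length trend, against 0.01 over all genes. Mylk, the myosin light chain kinase (chromosome 16, 34745199 to 35002436), had 572 counts with sg1, 8119 with sg2 and 141 in the control, 12.4-fold higher with sg2 (interval 11.4 to 13.5). Cnn2, calponin 2, had 2994, 17640 and 77 (5.15-fold, interval 4.96 to 5.36). Both were above the control with either guide. Tagln, transgelin or SM22, had 174 counts with sg1, 1076 with sg2 and 123 in the control (5.41-fold), so that its sg1 level was near the control. Myl9, a regulatory light chain, had 499, 2332 and 6 (4.09-fold, and 3.05-fold after length). Acta2, smooth muscle actin, had 6774, 18874 and 0 counts, 2.44-fold higher with sg2 and under the limit.

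This was not the profile of mature smooth muscle, since its defining myosin Myh11 had 11 counts with sg1, 14 with sg2 and 3 in the control, and the thin-filament gene Cnn1, under the 200-count minimum, had 191, 137 and 17 and was higher with sg1. Outside that list, Msn, moesin, which ties actin to the cell membrane (X chromosome, 96096045 to 96168553), had one of the largest differences at a high level, with 107 counts with sg1, 11636 with sg2 and 32 in the control, 95.1-fold (interval 78.6 to 116). Mrvi1, a substrate of cGMP-dependent kinase in smooth muscle, had 15, 1583 and 10 (92.3-fold, interval 55.8 to 165). Against the control Mrvi1 had log2 ratios of 0.54 with sg1 and 7.07 with sg2, and Msn 1.70 and 8.27, so that both were chiefly seen with sg2.

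The promoters of Myl9 and Cnn2 are printed because they are the members higher with sg2 whose promoter window holds a CArG box, shown in capitals. The windows are RefSeq sequence of GRCm38.p6, from 250 bases before to 50 after the gene start, 5′ to 3′ on the gene's strand. Myl9 is read at chr2:156775214-156775513 on the plus strand with the box 161 bases before the start that the promoter table uses (the gene table starts Myl9 further upstream, at 156775408), and Cnn2 at chr10:79988350-79988649 on the plus strand with the box 56 bases before it.
Myl9: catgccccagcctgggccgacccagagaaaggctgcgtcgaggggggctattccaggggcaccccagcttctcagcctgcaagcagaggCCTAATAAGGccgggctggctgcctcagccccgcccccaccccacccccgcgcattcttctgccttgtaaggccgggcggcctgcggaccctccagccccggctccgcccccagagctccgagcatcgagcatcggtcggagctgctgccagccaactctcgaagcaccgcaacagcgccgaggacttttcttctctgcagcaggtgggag
Cnn2: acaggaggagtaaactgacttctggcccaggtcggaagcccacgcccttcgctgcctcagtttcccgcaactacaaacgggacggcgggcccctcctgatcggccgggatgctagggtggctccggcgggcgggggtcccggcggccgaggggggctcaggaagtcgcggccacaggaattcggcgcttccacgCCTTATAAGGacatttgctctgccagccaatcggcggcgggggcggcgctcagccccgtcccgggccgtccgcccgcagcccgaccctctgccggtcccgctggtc
Of the members with a promoter in the table, 2 of 65 higher with sg2 (3.08%) and 0 of 83 higher with sg1 held the box, against 425 of 27025 promoters (1.57%), 125 of the 9521 of genes with at least 200 counts (1.31%) and 4 of 16 in the smooth muscle list (25.0%). Of the printed boxes, that of Cnn2 reads the same on both strands and that of Myl9 does not. A match is a run of letters and not a bound site.

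Among heat shock genes with at least 200 counts, 4 were far higher with sg2 and the others stayed under 4-fold. Heat shock proteins are chaperones, and the stress-inducible ones are switched on by heat shock factor through heat shock elements, while Hspa8 and its like are always on. Hspb1, the small heat shock protein HSP27 (chromosome 5, 135887919 to 135889563), had 174 counts with sg1, 4098 with sg2 and 13 in the control, 20.6-fold (interval 17.7 to 24.1). Hspa1b, an inducible HSP70, had 443, 3689 and 7 (7.28-fold, interval 6.60 to 8.06), and its near copy Hspa1a had 164, 1472 and 5 (7.85-fold). Reads can be shared between these copies, so their split is uncertain. Hspb7, a small heat shock protein of muscle, had 2 counts with sg1, 260 with sg2 and 2 in the control, a ratio of 114 from the counts as they stand, with an interval of 31.2 to 944, and of 75.8 with the count of sg1 set to 3. Hspa1a and Hspb7, and the list of heat shock proteins, were chosen after their values were seen.

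Most of the family differed less. The constitutive Hspa8 had 5304 counts with sg1, 8659 with sg2 and 4253 in the control (log2 -0.51), the stress-inducible Hsph1 8929, 11931 and 9573 (log2 -0.23), and Dnajb1, a co-chaperone, 2848, 3917 and 3209 (log2 -0.27). Hsp90aa1, an inducible HSP90, had 10162, 14630 and 12242 counts (log2 -0.33). Bag3 had 2273 counts with sg1, 2536 with sg2 and 98 in the control, high with both guides. In all, 4 of 25 heat shock genes were 4-fold higher with sg2, against 0.801% of all genes, with a median log2 ratio of -0.32 over the 25.

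The promoters of Hspb1, Hspa1a and Hspa1b are printed because these 3 members hold a heat shock element, searched as GAANNTTC or TTCNNGAA (each reads the same on both strands) and shown in capitals. Hspb1 is at chr5:135887669-135887968 on the plus strand, with matches that start 117 and 97 bases before the gene start. Hspa1a is at chr17:34972107-34972406 and Hspa1b at chr17:34959189-34959488, both on the minus strand with 1 match 104 bases before the start, and 296 of their 300 bases are identical.
Hspb1: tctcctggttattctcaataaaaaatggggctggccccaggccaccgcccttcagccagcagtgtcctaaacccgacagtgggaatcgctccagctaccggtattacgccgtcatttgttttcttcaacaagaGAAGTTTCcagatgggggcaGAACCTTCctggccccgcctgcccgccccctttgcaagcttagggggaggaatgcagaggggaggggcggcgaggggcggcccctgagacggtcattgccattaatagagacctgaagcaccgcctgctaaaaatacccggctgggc
Hspa1a: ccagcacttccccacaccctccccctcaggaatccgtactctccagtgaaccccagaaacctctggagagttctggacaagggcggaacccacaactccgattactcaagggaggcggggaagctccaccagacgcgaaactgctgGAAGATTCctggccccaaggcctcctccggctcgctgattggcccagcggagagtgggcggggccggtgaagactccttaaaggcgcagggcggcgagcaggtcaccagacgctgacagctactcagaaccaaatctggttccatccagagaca
Hspa1b: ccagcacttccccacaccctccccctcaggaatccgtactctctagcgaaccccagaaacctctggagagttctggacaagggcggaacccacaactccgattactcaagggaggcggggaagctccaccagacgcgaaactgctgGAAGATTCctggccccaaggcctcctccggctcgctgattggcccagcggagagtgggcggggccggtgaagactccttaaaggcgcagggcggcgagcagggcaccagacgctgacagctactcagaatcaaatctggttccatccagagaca
Such an element was found in 13 of 65 promoters of members higher with sg2 (20%), 13 of 83 of those higher with sg1 (15.7%), 8 of 23 heat shock genes (34.8%) and 4073 of all 27025 promoters (15.1%), or 1047 of the 9521 of genes with at least 200 counts (11%).

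Abundant single genes completed the sg2 side. Clu, the secreted chaperone clusterin (chromosome 14, 65968483 to 65981548), had 1827 counts with sg1, 49839 with sg2 and 7 in the control, 23.9-fold (interval 22.8 to 25.0). Tcea3, a transcription elongation factor, had 4415, 38736 and 179 (7.67-fold), and Ccnd2, cyclin D2 of the G1 phase, had 128, 4178 and 0 (28.6-fold, interval 23.9 to 34.3). Clu and Tcea3 were above the control with both guides, and much further with sg2. Ccnd2 was the single member among 46 cell cycle genes, against 0.801% of all genes. The list had a median log2 ratio of -0.05. Afap1l1, an actin-associated adaptor, had 1287 counts with sg1, 6199 with sg2 and 6 in the control (4.21-fold), and Angptl2, a secreted angiopoietin-like protein, had 603, 3136 and 53 (4.55-fold).

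Single receptors and enzymes were on this side too, although others such as Ptgs1, a cyclooxygenase (353, 42 and 53 counts), were higher with sg1. Ptger3, a prostaglandin E2 receptor, had 16 counts with sg1, 1020 with sg2 and 10 in the control (55.8-fold, interval 34.2 to 97.9), and Oxtr, the oxytocin receptor, had 48, 1231 and 6 (22.4-fold). Htr5b, a serotonin receptor gene, had 15, 511 and 7 counts (29.8-fold), and Cyp24a1, which inactivates vitamin D, had 18, 954 and 1 (46.4-fold). Each of these 4 was low with sg1 and in the control and high with sg2. Il15, a cytokine for lymphocytes, had 17, 271 and 0 counts, and Ntrk3, the neurotrophin receptor TrkC, had 55, 378 and 5 (6.01-fold). Hapln1, which links hyaluronan to proteoglycans, had 23 counts with sg1, 630 with sg2 and 45 in the control (24-fold), so that sg1 was below the control.

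Transcription factors of other lineages differed as well. Mitf, the melanocyte master factor, had 153 counts with sg1, 1769 with sg2 and 72 in the control (10.1-fold higher with sg2). Grhl3, a factor of surface epithelium, had 1455, 7486 and 2721 (4.50-fold), below the control with sg1 and above it with sg2. Tfap2b, a neural crest factor, was on the sg1 side with 662, 172 and 199 counts (4.40-fold, 3.38-fold after length). Lists with genes on both sides gave few members: 1 of 37 Sox, Pou, Pax, Gata and forkhead factors on each side, and 1 of 7 neural crest and melanocyte genes on each side. Over all genes 0.976% were higher with sg1 and 0.801% with sg2. S100a6, a calcium-binding protein, had 197 counts with sg1, 1004 with sg2 and 0 in the control (4.46-fold, 3.13-fold after length), and Tspan33, a tetraspanin, had 50, 307 and 131.

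Some programs leaned to 1 guide without a member. Genes of MHC class I and antigen processing, which load peptides for T cells, had a median log2 ratio of -1.09 over 18 genes, with 17 below 0 and 10 at 2-fold or more higher with sg2 and none at that fold with sg1, against 4.56% and 7.14% of all genes. B2m, the MHC class I light chain, had 7289 counts with sg1, 18662 with sg2 and 532 in the control (2.24-fold higher with sg2), and Psmb8, an immunoproteasome subunit, had 1389, 5398 and 78 (3.40-fold). After the length trend the list's median was -0.86. Targets and partners of YAP and TAZ had a median of -0.58 over 25 genes. Cytosolic ribosomal proteins, which are short, had a median of -0.42 over 54 genes that became 0.09 after length. Interferon-induced effectors (-0.05 over 37 genes), the Notch pathway (0.09 over 24) and cholesterol synthesis (-0.06 over 33) lay near the 0.01 of all genes. The LSD1-CoREST complex with SNAG factors had 0.38 over 22. After length these medians were -0.21, 0.02, -0.13 and 0.18 in the order given. No gene of these 7 lists reached 4-fold, against 1.78% of all genes.

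Set beside the control, the members took several patterns. For genes higher with sg1 the control was below both guides in 54 of 117 (46.2%), between them in 42 (35.9%) and above both in 21 (17.9%). For genes higher with sg2 these numbers were 73 (76.0%), 21 (21.9%) and 2 (2.08%) of 96. Counts under 3 were set to 3 before scaling. In 6 of these 21 genes the control had 0 counts, so their place between the guides rests on the set value and on library depth. Over all 11988 genes the control was below both in 43.1%, between in 20.7% and above both in 36.1%. The 21 genes of the sg1 side with the highest level in the control held 9 of the neuronal lists, Pclo, Syt14, Sv2c, Neurod4 and Scn9a among them, and none of the matrix and contractile lists. The 54 with the control lowest held 12 of the matrix and contractile lists and 5 of the neuronal lists. These counts describe members alone, without the same counts over all genes, and the lists were chosen with earlier results known. In the genes higher with sg1 the control lay within 2-fold of sg1 but not sg2 in 29 (24.8%). It lay within 2-fold of sg2 but not sg1 in 31 (26.5%), and of neither in 57 (48.7%). For the genes higher with sg2 these were 25 (26.0%), 6 (6.25%) and 65 (67.7%). Over all 11988 genes the shares were 14.1%, 2.79% and 14.3%, and in 68.8% the control was within 2-fold of both. A 4-fold gap between the guides nearly forbids that last place, so the rule that chose the members bears on these shares. Both ratios to the control share the same control library, so no relation between them is read here.

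**Figure D4:**
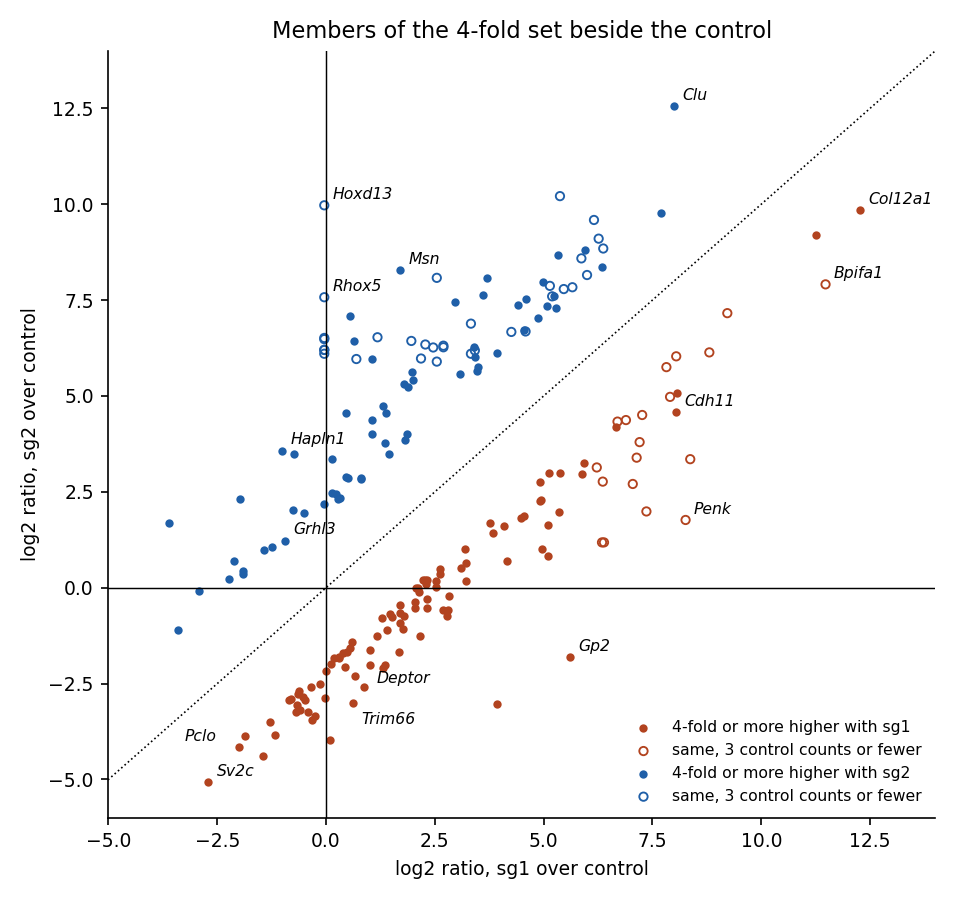
Each point is a member; the horizontal axis is the log2 ratio of sg1 over the control and the vertical axis that of sg2 over the control, with counts under 3 set to 3, and the dotted line marks equal levels of the guides. Members lie off the dotted line by the rule that chose them; most members higher with sg2 (73 of 96) are above the control with both guides, and Pclo and Sv2c are below it with both.

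Members were spread over the genome, in unequal shares by chromosome. Chromosome 2, with the Hox D genes, held 16 members higher with sg1 and 11 higher with sg2 among 959 genes (1.67% and 1.15%). Chromosome 3 held 10 and 8 among 594 (1.68% and 1.35%), and the X chromosome 3 and 8 among 382 (0.785% and 2.09%). Over all genes the shares were 0.976% and 0.801%. Runs of neighbouring genes that differed together were searched with a median over 21 genes of at least 200 counts, after the length trend, at a limit of 0.8 on the log2 scale that was set after the data were seen. On chromosome 3, from 100938860 to 103179163, all 15 genes were higher with sg1, with a median of 2.57-fold. There Nras had 56872 counts with sg1, 20927 with sg2 and 18372 in the control (3.11-fold). Against the control the median log2 ratio of these 15 genes was 1.34 with sg1 and -0.06 with sg2. Another run on chromosome 3, from 89418551 to 90212151, had 16 of 17 genes higher with sg1 and a median of 1.83-fold. Short stretches near it also passed the limit, among them 2 of 3 genes each: from 90213715 to 90253613 and from 90514233 to 90543151, 1 gene in each was higher with sg1, with median log2 ratios of -0.18 and -0.40. On chromosome 12, from 51680481 to 55080234, all 14 genes were higher with sg2, with a median of 2.13-fold, and the medians against the control were 0.46 for sg1 and 1.51 for sg2. Snx6, a sorting nexin in that run, had 6050 counts with sg1, 14447 with sg2 and 4563 in the control. Nras and Snx6 were named after their values were seen.

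These runs held few genes, members or not. Of 212 members with a position, 1 (Kcnn3) lay in such a run, against 55 of all 11965 genes with a position. The median of the surrounding genes was under 0.3 in size on the log2 scale for 178 of the 212 members and for 10856 of the 11965 genes. Gatad2b, Dcst2 and Muc1 on chromosome 3 had regional medians of 0.78, 0.75 and 0.63 toward sg1, and Coch on chromosome 12 had -0.72, toward sg2, so a share of their ratio was seen in neighbours too. What the runs come from was not tested.

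**Figure D5:**
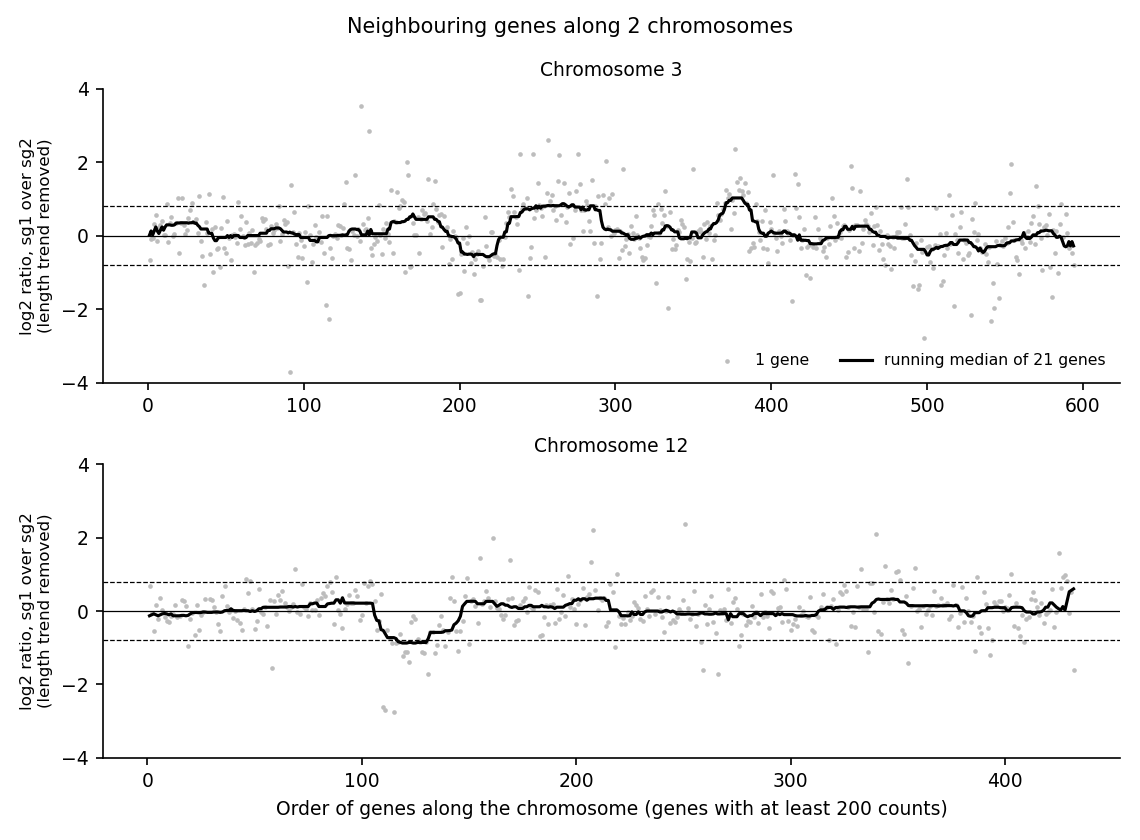
Genes with at least 200 counts in their order along chromosomes 3 and 12 (horizontal axis) and their log2 ratio of sg1 over sg2 with the length trend removed (vertical axis); the line is the median over 21 neighbouring genes and the dashed lines mark 0.8 either way. The line passes the upper dashed line in stretches of chromosome 3 and the lower one in 1 stretch of chromosome 12.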

How the data were processed

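RNA was sequenced as paired-end reads from the sg1, sg2 and control cells, 1 library each. The authors deposited raw read counts and RPKM per gene for 24523 genes; per the file headers both stand in 1 table. Per the submitters' processing notes the tools were TopHat2 2.0.12, Bowtie2 2.2.3 and HTSeq 0.6.1, on mm10; settings, strand and reads with several positions are not described in what was used here. Antisense, overlapping and near-identical genes are therefore uncertain.

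Counts were scaled to library totals, the ratio is sg1 over sg2 with counts under 3 set to 3 (where the lower count is 1 to 3, the ratio of the counts as they stand is printed with its interval), and intervals are 95% exact (Clopper-Pearson) ones on the split of a gene's counts. Implied length is counts over RPKM; a lowess trend (fraction 0.3; statsmodels 0.14.6) on log2 length was subtracted as an alternative. Others were TMM and upper-quartile factors (edgeR 4.0.16), DESeq2 1.42.0 size factors, other count minimums and folds, and chromosome medians; the running median along chromosomes was added after the data were seen. No count model was fitted. Positions are those of GRCm38.p6, matched by gene ID for 24418 genes. The calculation of ratios was tested on simulated data.

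Named genes are Kdm1a, the 15 largest ratios per side at 10 CPM or more, the 15 highest levels per side, up to 5 per list and side, and 3 inside and 3 outside the limit per side, without predicted genes. Genes outside this rule, non-members among them, were chosen after their values were seen, and some genes taken by the rule are not reported here. The members and the gene lists were chosen with earlier results of these data known.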

Additional observations from a re-analysis of the deposited data

Results flagged for a closer look

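In 16 named members the guides lay on opposite sides of the control, each by at least 1.5-fold, and this difference was not tested, since each group has 1 library. In all, 31 members did so, 22 of them above the control with sg1 and 9 above it with sg2. Members were chosen for a gap of 4-fold or more between the guides, which favours such a place of the control. No share over all genes stands beside the 31, so the number is a description. Values are log2 ratios to the control, with counts under 3 set to 3.

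Above the control with sg1 and below it with sg2 were 13 of the 16. Gp2, a glycoprotein of secretory granules, had 5.61 with sg1 and -1.82 with sg2, and the sg2 count was 0. The matrix genes Col11a1 and Spock1, which encodes the proteoglycan testican 1, had 1.69 and -0.66, and 1.70 and -0.92. The channel genes Kcnab1, Kcnt1 and Scn2a had 2.78 and -0.75, 1.47 and -0.68, and 1.80 and -0.74. Pcdh17, a protocadherin, had 1.30 with sg1 and -2.08 with sg2. B3galt2, a galactosyltransferase, had 2.16 and -1.25, and Slc7a3, an amino acid carrier, had 1.29 and -0.79. Lipo3, of a lipase family, had 1.35 and -2, and Deptor, an mTOR inhibitor, had 0.87 and -2.59. The chromatin gene Gatad2b had 0.60 and -1.43, and Trim66 had 0.63 and -3.00.

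Below the control with sg1 and above it with sg2 were the other 3. Hapln1, a link protein of cartilage matrix, had -1.01 with sg1 and 3.57 with sg2. Grhl3, an epithelial factor, had -0.94 and 1.23, and Tspan33, a tetraspanin, had -1.43 and 0.99.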

How the results depend on the processing

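With 1 library per guide there is no replicate error, and depth limits genes of low count most. The counts of members (117 higher with sg1, 96 with sg2) were 113 and 104 with TMM factors, 112 and 106 with DESeq2 size factors, 114 and 100 with upper-quartile factors, 108 and 92 with the length trend subtracted, 118 and 99 with chromosome medians subtracted, and 94 and 96 with length trend and regional median subtracted, an alternative chosen after seeing the data. They were 1448 and 1147 with no count minimum, 248 and 194 at 50 counts, 36 and 39 at 1000 counts, 856 and 547 at a fold of 2, and 34 and 42 at a fold of 8. Of 93 named members 91 stayed past 4-fold with TMM and with DESeq2 size factors, 92 with upper-quartile factors, 77 with the length trend subtracted, 88 with chromosome medians subtracted and 70 with length trend and regional median subtracted; no named member changed sides. The Kdm1a ratio of sg1 over sg2, 0.79, was 0.84 with length trend and regional median subtracted. No paired analysis was possible because each guide has 1 library.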

Other observations

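Members outside the gene lists, named after their values were seen, held further unequal genes. Rtp1, which helps odorant receptors to the cell surface, had 327 counts with sg1, 3 with sg2 and 21 in the control, a ratio of 125 (interval 42.3 to 607). Tacr1, the receptor of substance P, had 739, 111 and 0 counts (7.61-fold), and Ptger2, a prostaglandin E2 receptor, had 366, 73 and 0 (5.73-fold), while Ptger3 of the same family was higher with sg2. On the sg2 side Adam12, a membrane protease of mesenchymal cells, had 2 counts with sg1, 259 with sg2 and 0 in the control. Osr1, a zinc finger factor of mesoderm, had 0, 242 and 0 (at least 70.6-fold). The homeobox genes Six3 and Gbx2 and the zinc finger gene Zic1 were all higher with sg2: Six3 had 136, 779 and 2 counts, Gbx2 113, 683 and 0, and Zic1 180, 1356 and 2.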
